A study of Drosophila melanogaster with 10 samples.

Results

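The digestive lipases described here are 9 of the 14310 genes in the deposited table, chosen by name as neutral and acid lipases of the gut. Earlier results of these data were known when they were chosen. The acid lipase members are mag (magro), Lip3, CG2772, CG31089 and CG31091, and the neutral lipase members are CG6271, CG6277, CG6283 and CG6295. All 9 had a mean of at least 1 TPM over the libraries and entered the test, as did 8784 genes in all. RNA of adult male Drosophila melanogaster midguts was sequenced in 10 libraries, each made from 20 pooled midguts of flies kept on yeast alone at 25 °C with 12 h of light and dissected at day 7 of adult life. The 5 libraries labelled dHNF4 RNAi came from males with mex-GAL4/+ and UAS-dHNF4 RNAi NIG9310-R2/+, in which the driver expresses the hairpin in enterocytes, the cells that take up digested food. The 5 control libraries came from w1118/Y males with UAS-dHNF4 RNAi NIG9310-R2/+ and no driver, so the transgene was present in both groups and the driver in the first alone. One RNAi line was used, and the driver and the knockdown cannot be told apart.

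Dietary fat reaches the fly midgut mostly as triglyceride, which has to be cut by lipases in the lumen before fatty acids can enter enterocytes. Acid lipases belong to the family of mammalian gastric and lysosomal lipase, while neutral lipases resemble mammalian pancreatic lipase. The lipase encoded by mag is known in the fly to cleave dietary triglyceride and cholesterol esters, and its gene is a known target of the nuclear receptor Hr96 (DHR96). Hnf4 is the fly member of the nuclear receptor family that in mammals controls liver and gut genes of lipid handling.

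The gene table held TPM, a level corrected for transcript length and scaled to a constant library total. It gave no read numbers, and the sequencing depth is unknown. TPM totals ran from 975327 to 982443 per library. The median level of the genes tested was 18.6 to 19.3 TPM in libraries labelled dHNF4 RNAi and 11.9 to 14.4 TPM in control libraries, and over the 8784 tested genes the median log2 fold change was 0.55. Changes are therefore given on the TPM scale and again after median-of-ratios scaling, which divides each library by the median of its gene-wise ratios to the mean library and brought that median to 0.01. Hnf4, the targeted gene, measured 42.1, 46.1, 47.4, 44.7 and 48.0 TPM in libraries labelled dHNF4 RNAi and 36.5, 45.8, 41.8, 36.3 and 33.5 TPM in control libraries. Its log2 fold change was 0.24 (limma adjusted p = 0.0199) on the TPM scale and -0.35 (limma adjusted p = 0.000815) after median-of-ratios scaling, so its direction depended on the scaling and all directions here follow the labels. The TPM-scale call on Hnf4 ended without control replicate 5 (log2 fold change 0.19, limma adjusted p = 0.0502) and when TPM was rescaled after leaving out mitochondrially encoded genes and the top 20 by abundance (0.11, limma adjusted p = 0.202). The authors' deposited table gave -0.21 for Hnf4 with an unadjusted p of 0.419. In RNA from whole midguts, fewer cells of a type and less RNA per cell cannot be told apart.

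Most of the digestive lipase genes were lower in libraries labelled dHNF4 RNAi. On the TPM scale 7 of the 9 fell, none rose, and Lip3 and CG6271 did not pass the test (limma, adjusted p under 0.05), against 16.3% of all genes tested that fell and 66.9% that rose. After median-of-ratios scaling 8 of 9 fell, with CG6271 not passing, against 35.8% of all genes that fell and 35.6% that rose. The median log2 fold change of the 9 genes was -1.56 against 0.55 for all genes tested, and -2.16 against 0.01 after median-of-ratios scaling. The groups did not overlap in 6 members on the TPM scale, all lower, against 11.7% of all genes that were lower without overlap and 60.3% that were higher. After scaling they did not overlap in 8 members, again all lower, against 29.4% of all genes lower and 28.6% higher. The sizes of change spread widely: 6 members were called at a log2 fold change of -1 or below, 3 at -3 or below and 2 at -5 or below, where these thresholds took 4.68%, 0.706% and 0.137% of all genes tested. After scaling the counts were 7, 4 and 2 members, against 11.5%, 1.16% and 0.194%. The authors' deposited table, with its p-values adjusted here by Benjamini-Hochberg, had 6 of the 9 lower and none higher, against 13.7% of its genes lower and 15% higher.

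**Figure D1:**
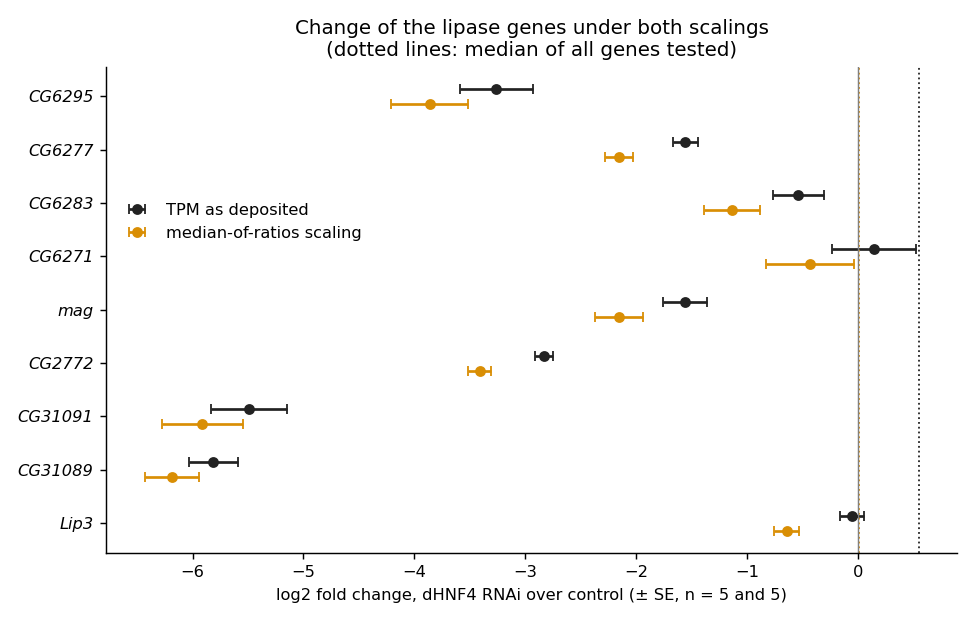
Log2 fold change of each lipase gene, dHNF4 RNAi over control (x axis), with limma's standard error, for TPM as deposited (black) and median-of-ratios scaling (orange); dotted lines mark the medians of all genes tested, 0.55 and 0.01. CG31089 and CG31091 lie below -5, while Lip3 and CG6271 lie nearest to 0.

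The 9 genes together summed to 1353, 1141, 947, 1355 and 1366 TPM in libraries labelled dHNF4 RNAi, against 5320, 3681, 4657, 4233 and 4055 TPM in control libraries. The lowest control sum was above the highest sum of the other group. The ratio of the group means, control over dHNF4 RNAi, was 3.56 on the TPM scale and 5.44 after median-of-ratios scaling. A sum does not depend on how reads were divided among gene copies within it.

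Among the acid lipase genes, mag was the most abundant in both groups. It lies on chromosome 3L, 20460683 to 20462274, plus strand (BDGP6.54), as 1 annotated transcript of 2 exons encoding 399 amino acids, and overlaps atk on the opposite strand. It measured 417, 284, 263, 552 and 452 TPM in libraries labelled dHNF4 RNAi, against 1216, 965, 1294, 1258 and 903 TPM in control libraries. Every control library was above every library of the other group, and the spread was wider among libraries labelled dHNF4 RNAi (coefficient of variation 30.6%) than among controls (16.0%), a difference that was not tested. The means were 393 ± 120 and 1127 ± 180 TPM (SD, n = 5 each), with a log2 fold change of -1.56 (SE 0.20, limma adjusted p = 1.77e-05) and of -2.16 (SE 0.22, limma adjusted p = 6.17e-06) after median-of-ratios scaling. In the authors' deposited table mag had a log2 fold change of -1.87 with an unadjusted p of 4.41e-05. Its known activator Hr96, named here for that role, measured 37.1 ± 2.67 TPM in libraries labelled dHNF4 RNAi and 24.6 ± 3.08 TPM in controls (SD, n = 5 each). Hr96 rose on the TPM scale (log2 fold change 0.58, limma adjusted p = 8.34e-05) and had a log2 fold change of -0.0019 after median-of-ratios scaling (limma adjusted p = 0.984).

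CG31091 and CG31089, neighbouring acid lipase genes on chromosome 3R, were nearly undetected in libraries labelled dHNF4 RNAi. CG31091 (25899903 to 25902172, plus strand, BDGP6.54) encodes 424 amino acids and CG31089 (25902643 to 25904178, plus strand) 421 amino acids; both have 3 exons in the annotation, and 470 bases separate them. CG31089 measured 0.0460, 0.647, 0.267, 0.370 and 0.870 TPM in libraries labelled dHNF4 RNAi, against 109, 49.5, 62.7, 97.5 and 89.7 TPM in control libraries. CG31091 measured 0.386, 1.01, 0.284, 1.15 and 2.73 TPM in libraries labelled dHNF4 RNAi, against 162, 47.9, 109, 80.2 and 72.5 TPM in control libraries. In both genes every library of the labelled knockdown was more than an order of magnitude below every control, and replicate 5 was the highest of the labelled knockdown libraries. They ranked 7 and 9 from the most lowered among 8784 genes tested. CG31089 had a log2 fold change of -5.81 (SE 0.22, limma adjusted p = 4.3e-09) and CG31091 of -5.49 (SE 0.34, limma adjusted p = 8.91e-08). After median-of-ratios scaling the values were -6.19 and -5.91. At such low levels the pseudocount sets the size: with 0.1 TPM in place of 1 TPM the values were -7.45 and -6.53, and with 5 TPM -3.94 and -3.93. The authors' deposited table gave -6.62 for CG31089 and -5.27 for CG31091.

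The log2 ratio of CG31091 to CG31089, with 1 TPM added to each, averaged 0.47 ± 0.37 in libraries labelled dHNF4 RNAi and 0.15 ± 0.50 in controls (SD, n = 5 each), a difference of 0.33 (two-sided exact permutation p = 0.278, and 0.278 adjusted over the 4 ratios examined). At the low levels of the libraries labelled dHNF4 RNAi this ratio rests largely on the added 1 TPM. With 0.1 TPM added the difference was 0.92 (exact permutation p = 0.0556), and with 5 TPM 0.015 (exact permutation p = 0.937). The test therefore cannot decide whether the pair's proportion differed. An antisense RNA gene, asRNA:CR43259, overlaps CG31089 on the opposite strand; the library kit was stranded, but whether strand was used in quantification is not given in the sources used here.

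CG2772 fell with a narrow spread in both groups. It lies on chromosome 2L, 3445992 to 3447589, plus strand (BDGP6.54), with 3 exons and 416 encoded amino acids. It measured 20.1, 22.0, 17.3, 17.0 and 21.1 TPM in libraries labelled dHNF4 RNAi, against 146, 129, 142, 149 and 155 TPM in control libraries. The groups lay far apart and neither held a stray library, with coefficients of variation of 11.5% and 6.63%. CG2772 fell by 2.83 on the log2 scale (SE 0.082, limma adjusted p = 4.96e-10) and by 3.41 after median-of-ratios scaling (SE 0.10, limma adjusted p = 1.24e-09), and the ratio of means, control over dHNF4 RNAi, was 7.39.

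Lip3 was the acid lipase gene whose level in TPM differed least. It lies on chromosome 3R, 13370240 to 13371904, minus strand (BDGP6.54), with 3 exons and 394 encoded amino acids, and overlaps CheA87a on the opposite strand. Lip3 measured 38.9, 44.1, 53.0, 51.2 and 49.7 TPM in libraries labelled dHNF4 RNAi, against 45.5, 43.8, 45.2, 59.9 and 51.9 TPM in control libraries, and the groups overlapped. Its log2 fold change was -0.054 (SE 0.11, limma adjusted p = 0.644). After median-of-ratios scaling it fell by 0.64 (SE 0.12, limma adjusted p = 0.000466) with no overlap, so the call on Lip3 rests on the scaling. In the authors' deposited table it was -0.30 with an unadjusted p of 0.346. A ratio within a library does not depend on the scaling, apart from the added 1 TPM. The log2 ratio of mag to Lip3 averaged 2.98 ± 0.49 in libraries labelled dHNF4 RNAi and 4.48 ± 0.28 in controls (SD, n = 5 each), without overlap. The difference of -1.50 had a two-sided exact permutation p of 0.00794, the smallest that 5 against 5 libraries can give, and of 0.0317 adjusted over the 4 ratios.

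**Figure D2:**
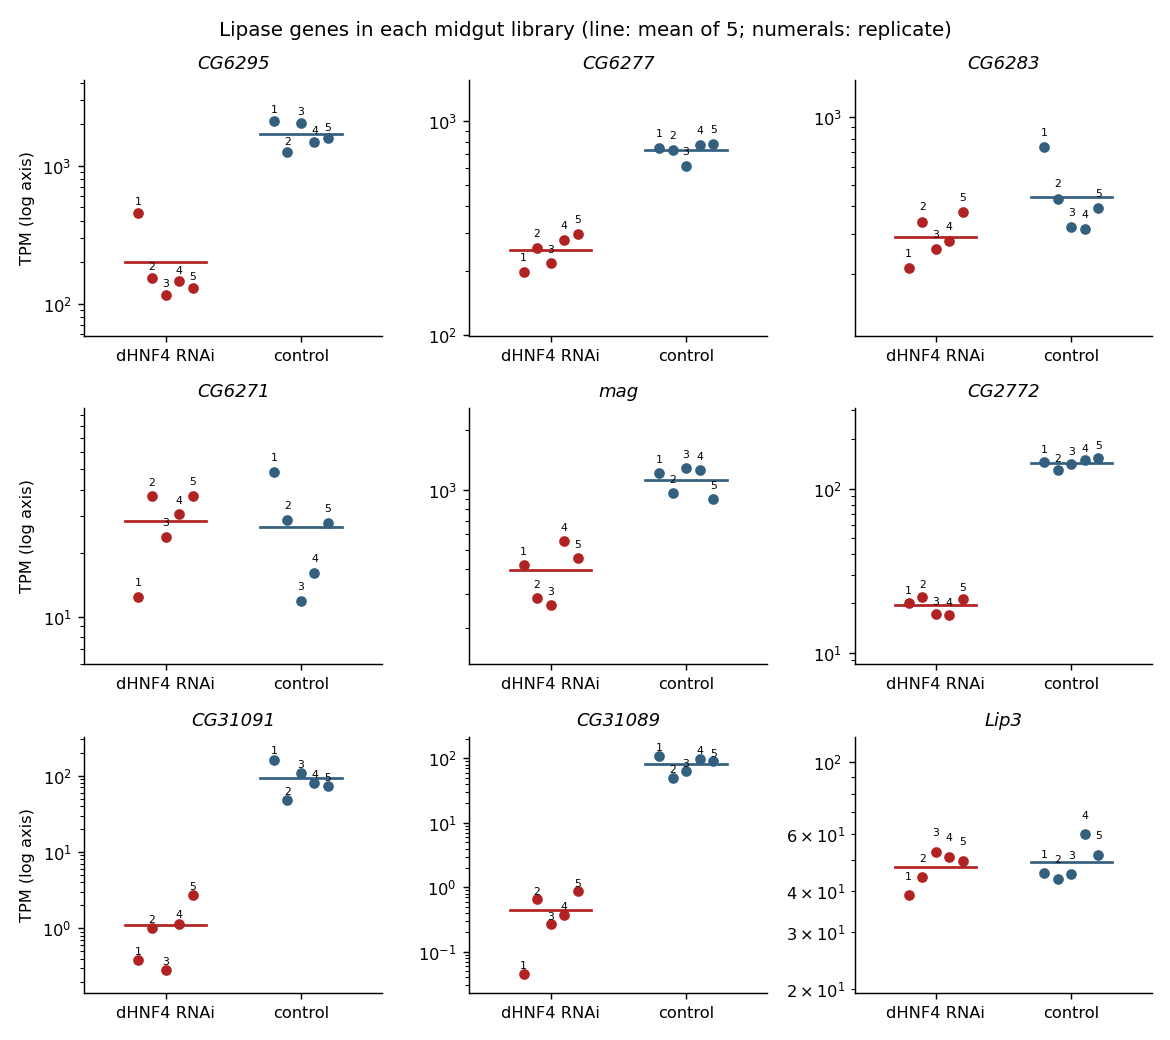
TPM of each lipase gene (log y axis, own range per panel) in the 5 libraries labelled dHNF4 RNAi (red) and the 5 control libraries (blue), with replicate numbers and a line at each group mean. The groups are apart in CG6295, CG6277, mag, CG2772, CG31091 and CG31089 and overlap in CG6283, CG6271 and Lip3; replicate 1 of the libraries labelled dHNF4 RNAi holds 454 TPM of CG6295, above the 116 to 154 TPM of the other 4.

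The 4 neutral lipase members sit in a tandem group on chromosome 3R. In BDGP6.54 the group runs over 22.9 kb, from 27003236 to 27026109, and holds 7 lipase genes on the minus strand in the order CG6296, CG6295, CG17192, CG17191, CG6283, CG6277 and CG6271. The 4 members overlap RYa-R on the opposite strand. The 4 members have 2 exons each and encode 338 to 341 amino acids, shorter than the 394 to 424 amino acids of the acid lipase members. Similar copies may share reads, so the division of TPM among them is uncertain.

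CG6295 was the most abundant of all 9 genes in controls and the one that lost most TPM. It measured 454, 154, 116, 145 and 130 TPM in libraries labelled dHNF4 RNAi, against 2110, 1254, 2052, 1487 and 1585 TPM in control libraries. The groups did not overlap, and replicate 1 of the libraries labelled dHNF4 RNAi stood well above its group. The log2 fold change was -3.26 (SE 0.33, limma adjusted p = 2.4e-06), and -3.86 after median-of-ratios scaling (limma adjusted p = 2.62e-06). The authors' deposited table gave -4.48 for CG6295.

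CG6277 also fell, with a narrow spread. It measured 198, 256, 216, 277 and 296 TPM in libraries labelled dHNF4 RNAi, against 748, 730, 618, 770 and 778 TPM in control libraries. The log2 fold change was -1.56 (SE 0.11, limma adjusted p = 2.34e-07), and -2.16 after median-of-ratios scaling (limma adjusted p = 1.21e-07). CG6277 and mag thus had nearly the same fold change on both scales, at a level of 249 ± 41.3 and 729 ± 64.8 TPM for CG6277 in libraries labelled dHNF4 RNAi and controls (SD, n = 5 each).

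CG6283 and CG6271 changed less. CG6283 measured 212, 342, 257, 281 and 376 TPM in libraries labelled dHNF4 RNAi, against 734, 433, 323, 316 and 391.99 TPM in control libraries, and the groups overlapped. Its log2 fold change was -0.54 (SE 0.23, limma adjusted p = 0.0463), a call that ended without any one of control replicates 1, 2 and 5 or dHNF4 RNAi replicates 1, 3 and 4, and was -0.22 (limma adjusted p = 0.182) without replicate 1 of both groups. After median-of-ratios scaling it was -1.14 (limma adjusted p = 0.00183), without overlap. In the authors' deposited table it was -0.034 with an unadjusted p of 0.937. CG6271 measured 12.4, 37.1, 23.9, 30.5 and 37.4 TPM in libraries labelled dHNF4 RNAi, against 48.6, 28.8, 11.9, 16.1 and 27.8 TPM in control libraries. Its values overlapped throughout, with a log2 fold change of 0.14 (SE 0.38, limma adjusted p = 0.729) and of -0.43 after median-of-ratios scaling (limma adjusted p = 0.345). Without replicate 1 of both groups CG6271 was at 0.65 (limma adjusted p = 0.0547), and at 0.10 after scaling (limma adjusted p = 0.754). The authors' deposited table gave 1.19 for CG6271 with an unadjusted p of 0.0381, or 0.102 after Benjamini-Hochberg adjustment over that table.

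Ratios within the group differed between the labelled groups. The log2 ratio of CG6295 to CG6277 was 1.20 in replicate 1 and -1.19 to -0.73 in the other 4 libraries labelled dHNF4 RNAi, against 0.78 to 1.73 in controls. The mean difference of -1.70 had a two-sided exact permutation p of 0.0317 (0.0423 adjusted over the 4 ratios), and without dHNF4 RNAi replicate 1 it was -2.13 with an exact permutation p of 0.00794. The log2 ratio of CG6283 to CG6271 averaged 3.40 ± 0.34 in libraries labelled dHNF4 RNAi and 4.08 ± 0.36 in controls (SD, n = 5 each). That difference of -0.68 had the same exact permutation p of 0.0317 (0.0423 adjusted), and the p became 0.0635 without any one of dHNF4 RNAi replicates 2, 3, 4 and 5.

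The 3 other genes of the group were looked at for their position after values were seen. CG17191 rose: it measured 5.15, 10.2, 7.37, 6.57 and 8.17 TPM in libraries labelled dHNF4 RNAi, against 2.67, 2.74, 0.440, 0.435 and 0.735 TPM in control libraries, without overlap. Its log2 fold change was 1.93 (SE 0.30, limma adjusted p = 8.71e-05), and 1.52 after median-of-ratios scaling (limma adjusted p = 0.00148). CG17192 fell by 1.49 (limma adjusted p = 0.017), and by 2.07 after scaling (limma adjusted p = 0.00481), with overlapping groups. Its replicate 1 was the highest library of both groups, at 69.2 TPM against 12.4 to 17.4 TPM in the other libraries labelled dHNF4 RNAi and at 182 TPM against 37.8 to 52.2 TPM in the other controls. In the authors' deposited table CG17192 was at -2.51 with an unadjusted p of 0.0366, or 0.0992 after Benjamini-Hochberg adjustment over that table. CG6296 fell by 1.44 (limma adjusted p = 7.48e-06), and by 1.70 after scaling, at 0.214 ± 0.062 TPM in libraries labelled dHNF4 RNAi and 2.38 ± 0.870 TPM in controls (SD, n = 5 each). CG17191 thus moved against CG6295, CG6277, CG17192 and CG6296 on both scales. The 7 genes together summed to 804 ± 119 TPM in libraries labelled dHNF4 RNAi and 2969 ± 526 TPM in controls (SD, n = 5 each).

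**Figure D3:**
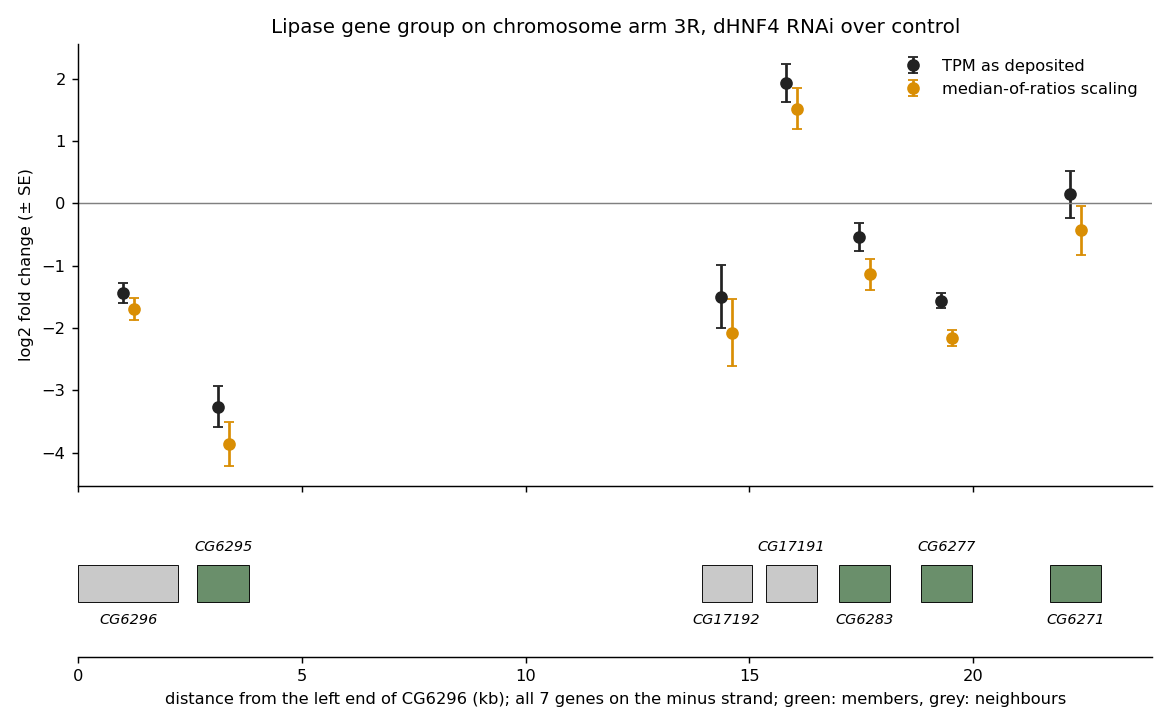
Log2 fold change with limma's standard error (upper panel, y axis) and position (lower panel, x axis, distance from the left end of CG6296 in kb) of the 7 lipase genes of the 3R group, dHNF4 RNAi over control, for both scalings. CG17191 lies above 0 at 1.93 and CG6295 lowest at -3.26.

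The make-up of the lipase transcripts differed as well. CG6295 held 9.49% to 33.6% of the summed TPM of the 9 genes in libraries labelled dHNF4 RNAi and 34.1% to 44.1% in controls, and replicate 1 held the 33.6% where the other 4 held at most 13.5%. CG6283 held 24.2% ± 5.89 in libraries labelled dHNF4 RNAi and 9.93% ± 2.89 in controls, without overlap. Shares of Lip3 (3.95% ± 1.00 and 1.14% ± 0.228) and CG6271 (2.34% ± 0.875 and 0.603% ± 0.276) were also higher in every library labelled dHNF4 RNAi than in every control library. The share of mag was 31.5% ± 6.03 in libraries labelled dHNF4 RNAi and 25.8% ± 3.18 in controls, with overlap. Shares sum to a whole, so a fall of one gene raises the others.

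**Figure D4:**
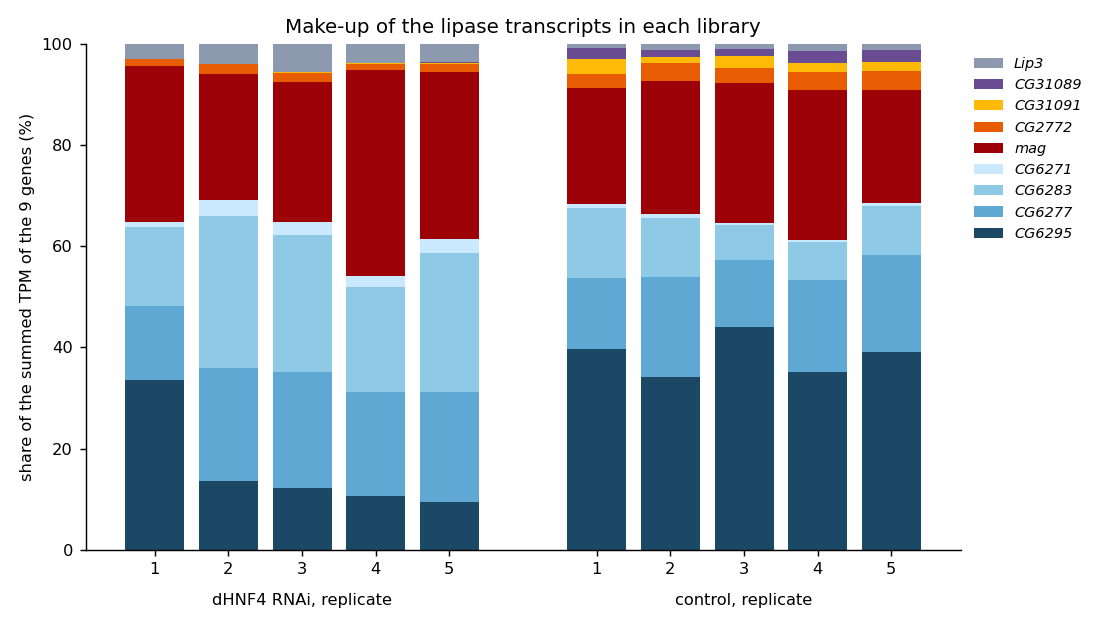
Share of each of the 9 genes in their summed TPM (y axis, %) in each library, with the 5 libraries labelled dHNF4 RNAi on the left and the 5 controls on the right. CG6295 (darkest blue) takes 34.1% to 44.1% in controls and 9.49% to 33.6% in libraries labelled dHNF4 RNAi.

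The order of levels changed accordingly. In libraries labelled dHNF4 RNAi mag led, followed by CG6283, CG6277 and CG6295, and each of these overlapped the next in its range over libraries. Lip3, CG6271 and CG2772 came next, and CG31091 and CG31089 last. In controls the order was CG6295, mag, CG6277, CG6283, CG2772, CG31091, CG31089, Lip3 and CG6271, where the ranges of mag and CG6277 and those of CG6283 and CG2772 were apart and all other neighbours overlapped. By mean TPM among all 14310 genes, CG6295 ranked 653 in libraries labelled dHNF4 RNAi and 100 in controls, and mag 398 and 186.

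Of 42 other secreted or lysosomal lipase genes found, 14 reached a mean of 1 TPM and were tested, and 27 of the other 28 were under 1 TPM in both groups. Of the 14 tested, 11 fell and 3 rose, and 11 fell and 2 rose after median-of-ratios scaling. Of all genes tested 16.3% fell and 66.9% rose, and after scaling 35.8% fell and 35.6% rose. The list's median log2 fold change was -0.53, and -0.9951 after scaling. CG3635, an acid lipase gene, fell by 2.28 on the log2 scale (limma adjusted p = 2.32e-08), and by 2.73 after scaling, at 1.53 ± 0.447 TPM in libraries labelled dHNF4 RNAi and 11.2 ± 0.709 TPM in controls (SD, n = 5 each). CG17292 fell by 0.62 (limma adjusted p = 9.53e-06), and by 1.21 after scaling. Lip4, a gene known to respond to foxo in the fly, rose by 1.00 (limma adjusted p = 4.66e-06), at 39.0 ± 3.30 TPM in libraries labelled dHNF4 RNAi and 19.2 ± 3.56 TPM in controls; after scaling the value was 0.42. CG8093, named after its values were seen as the most abundant of these genes, fell by 0.68 (limma adjusted p = 3.26e-05), and by 1.28 after scaling, at 694 ± 40.2 TPM in libraries labelled dHNF4 RNAi and 1116 ± 148 TPM in controls.

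**Figure D5:**
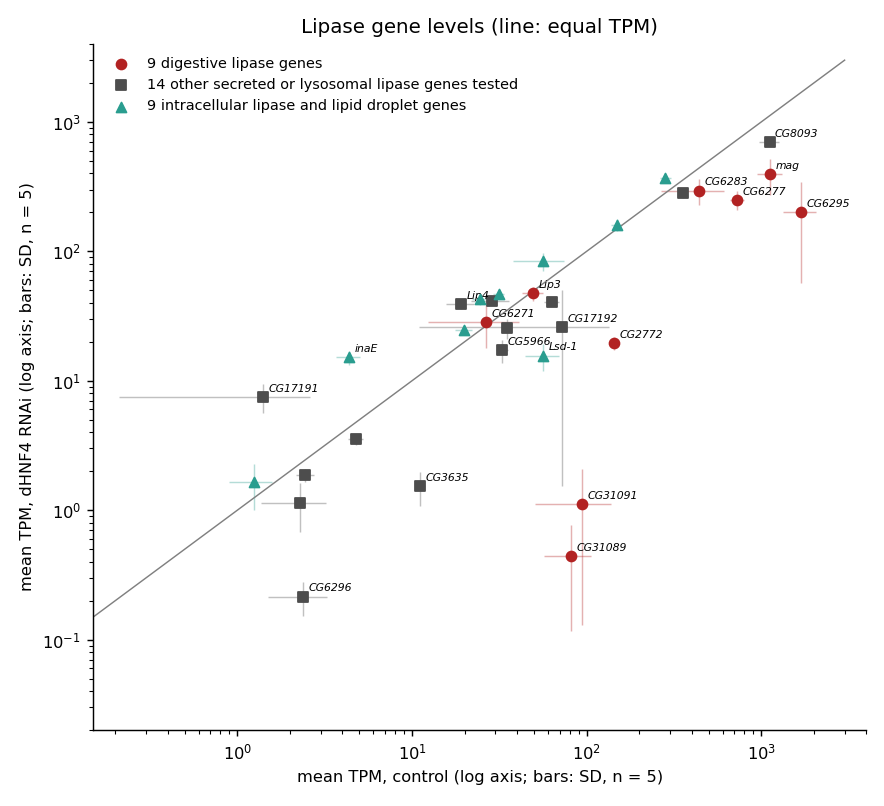
Mean TPM with SD (n = 5) in libraries labelled dHNF4 RNAi (y axis, log) and in controls (x axis, log) of the 9 digestive lipase genes (red circles), the 14 other lipase genes tested (grey squares) and the 9 intracellular lipase and lipid droplet genes (green triangles). CG31091 and CG31089 lie far below the line of equal TPM, and inaE and CG17191 above it.

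Of 9 genes listed for lipases inside cells and lipid droplet proteins, 6 rose, 1 fell and 2 did not pass. After median-of-ratios scaling 2 rose and 4 fell. Not all of them are known to act on stored fat. These counts lie close to the shares of all genes tested, of which 66.9% rose and 16.3% fell, and 35.6% rose and 35.8% fell after scaling. The lipase gene inaE rose by 1.59 on the log2 scale (limma adjusted p = 1.29e-07) and by 1.06 after scaling. Lsd-1, which encodes a perilipin of lipid droplets, fell by 1.80 (limma adjusted p = 4.13e-06), and by 2.38 after scaling, at 15.6 ± 3.75 TPM in libraries labelled dHNF4 RNAi and 56.6 ± 12.5 TPM in controls (SD, n = 5 each). PAPLA1 rose by 0.79 (limma adjusted p = 3.87e-06) and sws by 0.56 (limma adjusted p = 9.8e-06), and after scaling PAPLA1 was at 0.20 (limma adjusted p = 0.0156) and sws at -0.028 (limma adjusted p = 0.682).

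Of 31 genes for the steps after digestion (uptake, re-esterification and export of lipids), 16 fell, 7 rose and 8 did not pass, and 24 fell and 3 rose after median-of-ratios scaling. The shares of all genes tested were 16.3% fallen and 66.9% risen, and 35.8% and 35.6% after scaling. The median log2 fold change of the list was -0.48, and -1.03 after scaling. Those with the smallest adjusted p were the sterol-binding protein genes Npc2d, Npc2f and Npc2e and the scavenger receptor gene ninaD. Their log2 fold changes were -4.84, -4.35, 3.72 and -7.21, in that order (limma adjusted p at most 4.18e-08), and -5.42, -4.93, 3.12 and -7.65 after scaling.

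Among 20 genes listed as possible regulators of gut lipid genes, 10 rose and 5 fell, and 3 rose and 13 fell after median-of-ratios scaling. Of all genes tested 66.9% rose and 16.3% fell, and after scaling 35.6% rose and 35.8% fell. On both scales a smaller share of this list rose, and a larger share fell, than of all genes tested. These differences of share, in a short list, were not tested. Smox, which encodes a signal transducer of the activin pathway, and its receptor gene babo rose by 0.86 (limma adjusted p = 3.24e-06) and 0.56 (limma adjusted p = 5.72e-06). After scaling Smox was at 0.27 and babo at -0.0078. EcR, the ecdysone receptor gene, rose by 0.80 (limma adjusted p = 3.6e-06) and HDAC4, a histone deacetylase gene, by 0.75 (limma adjusted p = 2.63e-05), and after scaling they were at 0.29 and 0.19. The genes that fell included sug and daw, named after their values were seen. Log2 fold changes were -1.33 for sug (limma adjusted p = 0.00034) and -0.88 for daw (limma adjusted p = 0.00427), and -1.92 and -1.32 after scaling.

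The genes closest to 3 of the lipases in pattern were found by the root-mean-square difference of log2(TPM + 1), centred per gene, over the 10 libraries. Nearest to mag were Srr (0.157), CG33965 (0.211) and CG15533 (0.214). Srr was at 2.76 ± 0.981 TPM in libraries labelled dHNF4 RNAi and 9.79 ± 1.62 TPM in controls (SD, n = 5 each). Nearest to CG31089 were CG8299 (0.438), CG31269 (0.451) and CG11912 (0.491), and nearest to CG6295 were CG8562 (0.335), Mdr50 (0.411) and CG43206 (0.453). Groups that stand apart make many genes alike by this measure, so the likeness describes these libraries only.

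Markers of cell types in and around the midgut are counted here on the TPM scale, where 66.9% of all genes tested rose and 16.3% fell, and after median-of-ratios scaling, where 35.6% rose and 35.8% fell. Of 8 enterocyte markers 5 rose and 2 fell, and 4 rose and 3 fell after scaling. Their sums were 11274 to 14894 TPM in libraries labelled dHNF4 RNAi and 19554 to 22156 TPM in controls, but Amy-p, an amylase gene, carried most of them. Without Amy-p the other 7 summed to 4091 to 4557 TPM in libraries labelled dHNF4 RNAi and 2518 to 3233 TPM in controls, the opposite direction. The defining marker mex1 was at 894 ± 47.6 TPM in libraries labelled dHNF4 RNAi and 490 ± 26.3 TPM in controls (SD, n = 5 each). Its log2 fold change was 0.87, and 0.27 after scaling. Enterocyte markers that fell after scaling were Amy-p (-1.70), Myo31DF (-0.64) and Myo61F (-0.78), while 4 rose, mex1 among them. All 8 progenitor markers tested rose, and 7 after scaling, with sums of 167 to 190 TPM in libraries labelled dHNF4 RNAi and 23.3 to 49.7 TPM in controls. Of 8 fat body markers tested 4 fell, and 5 after scaling, with none higher. Fat body sums were 170 to 217 TPM in libraries labelled dHNF4 RNAi and 301 to 417 TPM in controls, but the gene to carried most of them. Without it the other 11 summed to 26.2 to 65.7 TPM in libraries labelled dHNF4 RNAi and 53.4 to 84.9 TPM in controls, with overlap. Lsp2, Fbp1, Yp1 and Yp2 were at 0 in at least 1 library. Of 10 visceral muscle markers 1 rose and 3 fell, while after scaling none rose and 9 fell, with sums of 2107 to 2460 TPM in libraries labelled dHNF4 RNAi and 2076 to 2417 TPM in controls. Of 9 enteroendocrine markers tested 4 rose and 3 fell, while after scaling 1 rose and 5 fell, with sums of 486 to 534 TPM in libraries labelled dHNF4 RNAi and 461 to 575 TPM in controls. Of 5 copper cell markers 3 rose and 2 fell, while after scaling 1 rose and 3 fell, and Zip42C.1 was at 0 in at least 1 library. Copper cell sums were 324 to 710 TPM in libraries labelled dHNF4 RNAi and 206 to 260 TPM in controls, and without Ctr1B, a copper transporter gene, 107 to 136 TPM in libraries labelled dHNF4 RNAi and 148 to 201 TPM in controls, the opposite direction. Of 3 Malpighian tubule markers tested 1 fell on both scales and none rose, Uro and CapaR were at 0 in at least 1 library, and the sums were 5.78 to 53.3 TPM in libraries labelled dHNF4 RNAi and 9.27 to 61.3 TPM in controls. The 1 haemocyte marker tested fell on both scales, He and eater were at 0 in at least 1 library, and the sums were 2.76 to 3.79 TPM in libraries labelled dHNF4 RNAi and 5.32 to 6.89 TPM in controls. The part of these shifts in the change of the lipase genes was not tested.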

How the data were processed

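Gene levels of 10 midgut libraries, 5 labelled dHNF4 RNAi and 5 control, were deposited by the authors as TPM. The submitters' processing notes name kallisto, edgeR, Trim Galore and FastQC, and build BDGP6; versions and settings are not given in the sources used here. The authors also deposited a table of log2 fold changes with unadjusted p-values, whose values are quoted as theirs; their exact model is not given in the sources used here. Depth is unknown, so no counting interval was computed. Differences were tested with limma 3.58.1 (R 4.3.3) on log2(TPM + 1), with a mean-variance trend and no covariate, for the 8784 of 14310 genes whose mean reached 1 TPM, two-sided, with Benjamini-Hochberg adjustment over all of them; calls are at adjusted p under 0.05. Fold changes are on that scale and understate changes of low genes. The fit was checked on simulated independent normal values with few changed genes and no shift shared across genes. That check does not bear on the scaling. Within-library ratios were tested by exact permutation of the libraries. Positions are from Ensembl release 115 (BDGP6.54), which held 14263 of the 14310 identifiers. The members and gene lists were chosen with earlier results of these data known. Named genes are the 9 members, Hnf4, up to 4 called genes with the smallest adjusted p per list, and the 3 genes nearest in pattern to mag, CG31089 and CG6295. For the marker lists they are the enterocyte marker mex1, markers at 0, markers that dominate a sum and enterocyte markers that fell after scaling. Exceptions are stated. The labels do not say whether the pools came from separate cultures, so p-values measure only the spread between these libraries. Alternatives covered scaling, pseudocount, filter, moderation, the replicate block and leaving out libraries. Sequences were not used here.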

Additional observations from a re-analysis of the deposited data

Results flagged for a closer look

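Of 36 groups of 5 values examined for a library far from its group, 6 were flagged. Chance flags about 1 in 20 where values are normal. The ratios reuse values of the genes, so the flags are not independent and their count was not tested against that rate. All 6 concern replicate 1. For CG6295, dHNF4 RNAi replicate 1 stood at 454 TPM, against 116 to 154 TPM in the other libraries so labelled. For CG17192, dHNF4 RNAi replicate 1 stood at 69.2 TPM, against 12.4 to 17.4 TPM, and control replicate 1 at 182 TPM, against 37.8 to 52.2 TPM. For CG6283, control replicate 1 stood at 734 TPM, against 316 to 433 TPM in the other controls. The log2 ratio of CG6295 to CG6277 was 1.20 in dHNF4 RNAi replicate 1, against -1.19 to -0.73 in the others, and that of CG6283 to CG6271 was 3.99, against 3.16 to 3.37. In dHNF4 RNAi replicate 1, CG6277, CG6283, CG6271, CG17191 and the barely detected CG6296 were at the lowest values of their group. CG6295 and CG17192 were at the highest in that library.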

How the results depend on the processing

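CG2772, CG31089, CG31091, CG6277, CG6295 and mag kept their direction and their call under all 21 alternatives run. Median-of-ratios scaling gave 3129 genes higher and 3145 lower over all genes tested, 2 higher and 4 lower among intracellular lipase genes, and 3 higher among fat absorption genes. With replicate 1 of both groups also left out, a setting chosen after seeing the data, these were 2895 and 2940, 1 and 3, and 3. Among the other lipase genes 5 rose with no filter on low values, and 7 fell with a minimum mean of 5 TPM, where fewer genes were tested. Scaling turned the log2 fold change of CG6271 to -0.43 and that of Hnf4 to -0.35. Without replicate 1 of both groups the scaled values were 0.10 for CG6271 and -0.31 for Hnf4. Leaving out 1 library at a time gave -0.0917 (without control replicate 3) to 0.40 for CG6271, -0.0957 to 0.0175 for Lip3 (0.013 without dHNF4 RNAi replicate 1, 0.0175 without control replicate 4), -0.64 to -0.33 for CG6283, 6 to 7 members fallen, and -0.83 to -0.54 for the log2 ratio of CG6283 to CG6271. Deviations from the group means correlated from -0.331 to 0.358 between libraries of equal number. So few correlations cannot decide whether the numbers pair the libraries, and a batch shared by number was not tested. With the replicate block 6 members fell, CG6283 losing its call (limma adjusted p = 0.0716), as it also did with no filter (0.0742) and with robust moderation (0.0662); over all alternatives its adjusted p ran from 0.00126 to 0.182. Sign flips of the 5 pairs cannot go below an exact p of 0.0625; under this replicate block the differences were -1.50 for mag to Lip3 (exact p = 0.0625), -1.70 for CG6295 to CG6277 (exact p = 0.0625) and -0.68 for CG6283 to CG6271 (exact p = 0.125). The cause of these shifts was not tested.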
